A study of Mus musculus with 265 samples.

Results

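The aminoacyl-tRNA synthetase genes were followed in chromatin accessibility, through the accessible regions at their start sites. A region was a member when its midpoint lay within 1000 bp of the start site of 1 of 36 synthetase genes, 20 cytosolic and 16 mitochondrial (gene symbols ending in 2), in the GENCODE vM21 annotation. This gave 37 of the 20103 deposited regions, of which 24 belonged to cytosolic enzymes, 12 to mitochondrial enzymes and 1 to the neighbouring Hars and Hars2 genes. The gene family was chosen by the 0-hour and 24-hour counts of 1 member, since the Kars region was higher at 24 hours, so the 0-hour to 24-hour values of Kars are given as a description and were not tested.

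The data were single-cell ATAC-seq counts, in which Tn5 transposase cuts and tags open DNA, from B3 cells, a mouse pre-B cell line. All cells carried an inducible Ikaros (ERt2-Ikaros), which is held outside the nucleus until 4-hydroxytamoxifen (4OHT) is added. The 0-hour group was collected before induction and held 95 cells, 48 in Fluidigm C1 run 1 and 47 in run 2, and the 24-hour group held 132 cells, 60 in run 1 and 72 in run 2. The 24-hour cells received 4OHT, given in the labels as 20 mM, with a second dose at about 12 hours, and the labels name no 24-hour group without 4OHT, so time in culture, the agent and Ikaros cannot be told apart. Neither the labels nor the methods say whether the 2 runs of a time-point came from separate cultures, so p-values measure only the spread between these runs. The runs held 164357 and 92639 counts at 0 hours and 122586 and 142611 counts at 24 hours, with median counts per cell from 1676 to 2898. Of the lineage markers, 8 of 11 B-lineage genes had a start-site region, at 449 to 637 CPM (counts scaled to a common run total) in sum, against 0 of 6 T-lineage and 0 of 3 erythroid genes, and 1 of 6 myeloid genes, at 0 to 43.2 CPM.

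Aminoacyl-tRNA synthetases load each transfer RNA with its amino acid, the step that fixes the genetic code during translation. Most amino acids have a cytosolic and a mitochondrial enzyme encoded by separate nuclear genes, while Kars and Gars each encode both forms. When amino acids run short, uncharged transfer RNA activates the kinase GCN2, and the transcription factor ATF4 then binds amino acid response elements at its target genes, many cytosolic synthetase genes among them. The core letters of that element are TGATGNAA. Pre-B cells divide before they differentiate, and protein synthesis is one of the processes that growth signals support at that stage.

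Matches to TGATGNAA at cytosolic enzymes are shown because they were more frequent in their start-site windows than in those of all promoter regions. Each line has 30 bases, read 5′ to 3′ on the strand that spells the motif, with the motif in capitals. The bases were read from GRCm38.p6, the mm10 build of the deposited regions.
Iars: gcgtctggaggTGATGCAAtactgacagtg
Cars: cttccagaatcTGATGCAAccgcggcgccg
Gars: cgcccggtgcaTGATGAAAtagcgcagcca
Sars: ctcgggtagtcTGATGCAAtaggtctgcaa
Mars1: ggagcccacgcTGATGCAAtcggaaccggc
Tars: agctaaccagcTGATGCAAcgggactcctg
Aars: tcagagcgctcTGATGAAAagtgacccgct
The Iars stretch is chr13:49682126-49682155 on the minus strand, in the 5′ UTR, with the motif 41 bp downstream of the start site. The Cars stretch is chr7:143600045-143600074 on the plus strand, 30 bp downstream in the UTR, and the Gars stretch is chr6:55037960-55037989 on the minus strand, 32 bp upstream. The Sars stretch is chr3:108444190-108444219 on the minus strand, in an intron 1004 bp downstream. The Mars1 stretch is chr10:127311638-127311667 on the plus strand, in the UTR, and the Tars stretch is chr15:11399655-11399684 on the plus strand, upstream of the start. The Aars stretch is chr8:111033840-111033869 on the minus strand, in an annotated UTR. In Iars, Cars, Gars, Sars and Nars the motif lay inside the deposited region, in Tars it straddled the edge of the region, and in Mars1 and Aars it lay in the flanks of the window.

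For Kars and Mars2, whose values by run are described in detail, 30 bases of the plus strand around the GC box (GGGCGG) are shown, with GC box and Ikaros core (GGGAA) letters in capitals.
Kars: ttccGGGAAagaGGGCGGgccctcggccgg
Mars2: cgggggagttgcGGGCGGggccgcaggagt
The Kars stretch is chr8:112011355-112011384, with the GC box 47 bp upstream of the Kars start site. The Mars2 stretch is chr1:55237096-55237125, with the GC box 66 bp upstream of the Mars2 start site. Neither gene's window held TGATGNAA.

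Motifs were searched on both strands in 300-bp windows centred on each region. TGATGNAA was found in 9 of 24 cytosolic windows (37.5%), which serve 8 of 19 cytosolic genes, in 0 of 12 mitochondrial windows and in the windows of 137 of all 8786 promoter regions (1.56%). At the share of all promoter regions, fewer than 1 of 12 windows would hold the letters, so the 0 mitochondrial matches are what that share gives. The windows of both Aars regions overlap and share 1 site. Among genes of the amino acid response, 6 of 23 windows held the letters (26.1%), those of Asns, Chac1, Ddit3, Eif4ebp1, Slc7a1 and Trib3. The Ikaros core GGGAA is short and common, and was found in 62.5% of cytosolic, 66.7% of mitochondrial and 62.2% of all promoter windows. The GC box GGGCGG, to which SP1 binds, was in 62.5% of cytosolic and 83.3% of mitochondrial windows against 71.9% of all. The E-box CACGTG, bound by MYC, was in 16.7% of cytosolic and 0% of mitochondrial windows against 11.5% of all. GCATGCGC, from the motif of NRF1, a factor known for nuclear genes of mitochondrial proteins, was in 0 cytosolic windows and in 2 mitochondrial windows (Rars2 and Vars2, 16.7%) against 5.85% of all. The median GC content was 60.5% in cytosolic, 66.3% in mitochondrial and 65.0% in all promoter windows. A match is a match of letters and was not tested for binding.

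**Figure D1:**
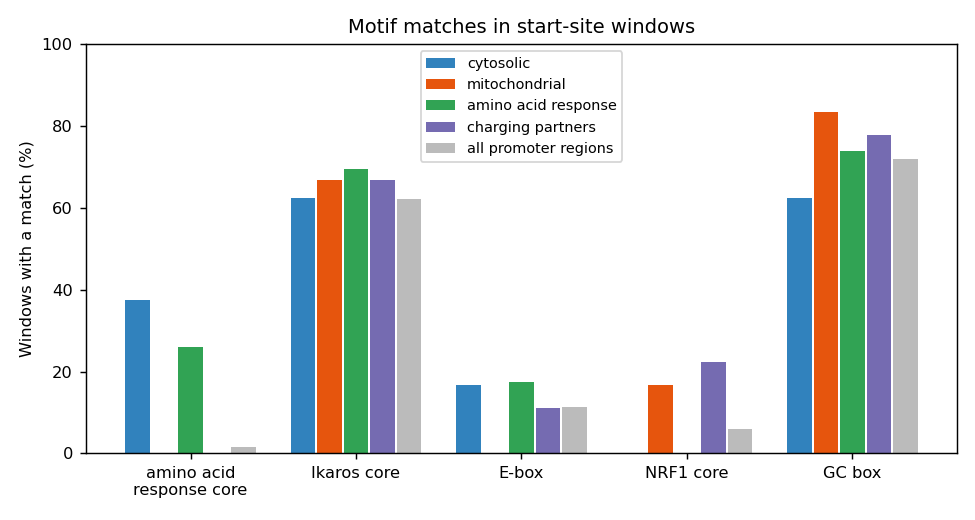
Share of 300-bp start-site windows (%, vertical axis) that held each of 5 motifs (horizontal axis), as bars for cytosolic synthetases (24 windows), mitochondrial synthetases (12), amino acid response genes (23), charging partners (9) and all promoter regions (8786). The amino acid response core was in 37.5% of cytosolic and 0% of mitochondrial windows, against 1.56% of all, while the Ikaros core was in 62.2% to 69.6% of the windows of every class.

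Start-site regions were found for 32 of the 36 synthetase genes (88.9%), against 38.4% of the 21951 protein-coding genes. All 20 cytosolic genes had at least 1 region, and 12 of the 16 mitochondrial genes had one. The 4 genes without a region were Aars2, Sars2, Tars2 and Wars2, the mitochondrial enzymes for alanine, serine, threonine and tryptophan. Aars, Dars, Mars1, Sars and Yars2 had several regions each, which are named here by their distance from the start site in bp. Of the 37 regions, 27 had their midpoint within 100 bp of the start site, and 31 overlapped a UTR of the member gene. The region farthest inside the limit was the intronic one 997 bp downstream of the Sars start, and the nearest region outside it lay 4027 bp upstream of Rars, with TMM-normalized CPM of 48.5 and 20.9 at 0 hours and 64.7 and 51.3 at 24 hours. Regions also lay within the limit of a second gene's start site for 6 members other than the Hars and Hars2 pair: Kars with Terf2ip, Wars with Wdr25, Fars2 with Lyrm4, Rars2 with Orc3, Yars with S100pbp and Ears2 with Ubfd1. Their signal cannot be assigned to 1 gene of the pair. All 36 member regions of 30 bp or longer had 1 copy in the genome, and the remaining one, 766 bp downstream of the Aars start, was only 3 bp wide.

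Each region was seen in few cells. The share of a run's cells with signal was averaged over the 4 runs. Its median was 8.63% over cytosolic regions, 9.01% over mitochondrial regions and 8.36% over the 8749 other promoter regions. In the same order, the lower quartiles were 6.14%, 7.52% and 5.09%, and the upper quartiles 16.1%, 12.8% and 12.9%. By the medians, synthetase regions were detected about as often as other deposited promoter regions. Start sites without a deposited region were not part of this comparison. The most often detected cytosolic regions belonged to Iars, Qars and Cars, the enzymes for isoleucine, glutamine and cysteine, with means of 21.4%, 17.6% and 17.6% of cells. Those of mitochondrial enzymes belonged to Nars2, Cars2 and Ears2, for asparagine, cysteine and glutamate, with 15.5%, 13.8% and 13.8%. The regions least often detected were extra regions inside the genes, 414 bp downstream of Dars (2.36%) and 997 bp downstream of Sars (2.43%). Per 100 bp of region and averaged over runs, and leaving out the 3-bp region 766 bp downstream of Aars, the level was 115 CPM at Kars, 94.3 at Iars, 79.2 at Qars and 76.1 at Cars. Among mitochondrial enzymes it was 67.9 at Pars2, the prolyl enzyme, 60.5 at Nars2 and 58.1 at Cars2. The Kars mean rests mostly on 1 run, as its values by run show.

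At 0 hours a cell had signal in a median of 4 member regions in run 1 and 2 in run 2, and at 24 hours in 3.5 and 3, and at most in 15. Deeper cells show more regions, so cells were also thinned to 837 counts each, which left out 23 of 227 cells, 0 and 1 at 0 hours and 13 and 9 at 24 hours. The mean number of member regions per thinned cell was 1.69 and 1.52 at 0 hours and 1.96 and 2.33 at 24 hours, and without Kars the 24-hour means were 1.91 and 2.05. Other promoter regions were also more numerous per thinned cell, with means of 378 and 337 at 0 hours and 417 and 461 at 24 hours.

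**Figure D2:**
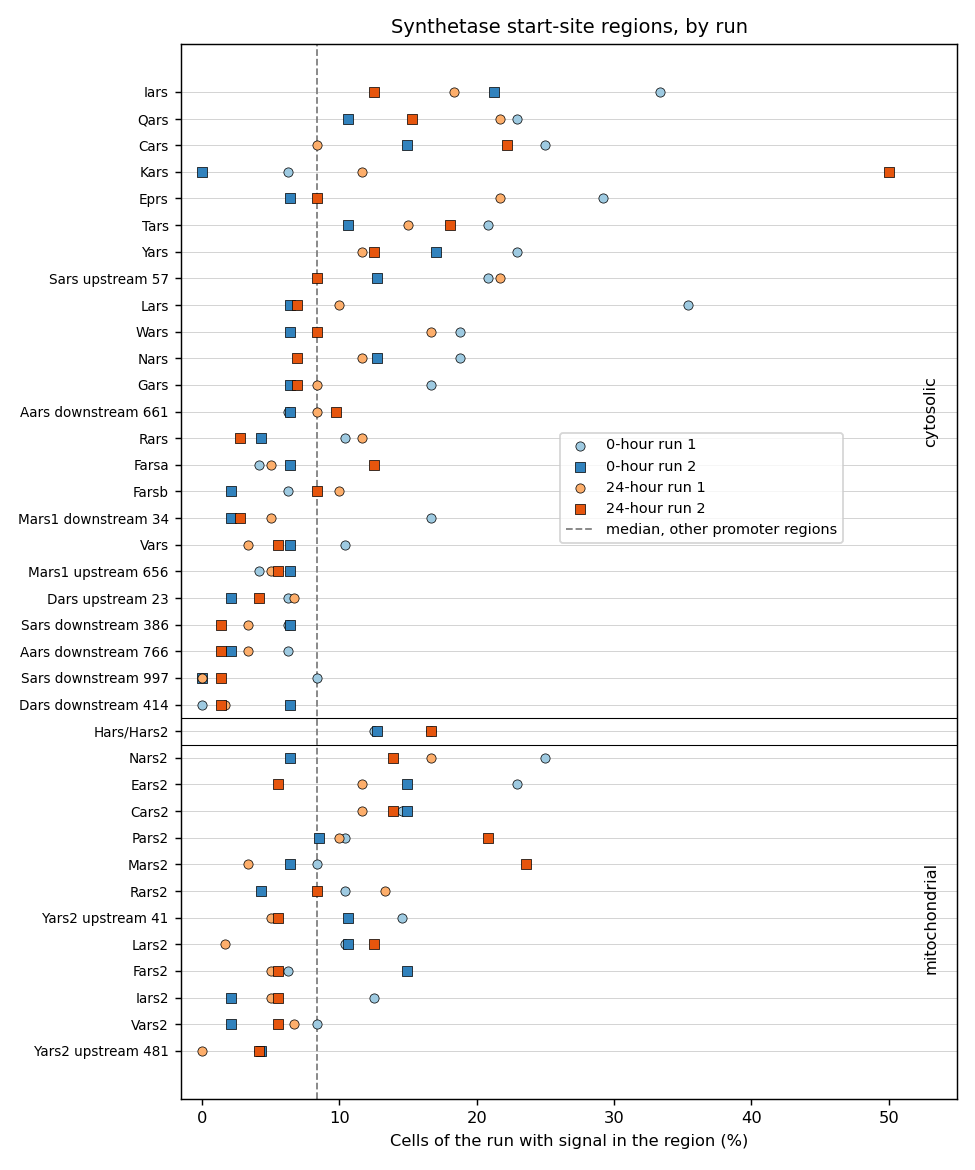
Share of cells with signal (%, horizontal axis) in each of the 37 synthetase regions (rows), grouped into cytosolic, shared Hars/Hars2 and mitochondrial enzymes, with 1 point for each of the 4 runs and a dashed line at the 8.36% median of other promoter regions. The 24-hour run 2 point of Kars, at 50%, stands apart from the other 3 Kars points, which run from 0% to 11.7%.

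Kars encodes lysyl-tRNA synthetase, and its region lay at chr8:112011289-112011415, 127 bp long and centred 29 bp upstream of the start site. The runs at 0 hours held 4 and 0 counts there, and those at 24 hours held 13 and 62. Signal was found in 3 of 48 cells (6.25%, exact 95% interval 1.31 to 17.2%) of 0-hour run 1 and in 0 of 47 cells of run 2, which allows a share of up to 6.38% by the limit of 3 cells and 7.55% by the exact interval. At 24 hours it was found in 7 of 60 cells of run 1 (11.7%, 4.82 to 22.6%) and in 36 of 72 cells of run 2 (50%, 38.0 to 62.0%). Both runs at 24 hours exceeded both at 0 hours, and 24-hour run 2 lay far above every other run.

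TMM-normalized CPM at Kars were 24.3 and 0 at 0 hours and 105 and 455 at 24 hours, a log2 change of 4.16 (n = 2 runs per time-point). Without 24-hour run 2 the log2 change was 2.76. Without 0-hour run 1 it was 8.08, a value set by the 0 count of the run that is left. After thinning, Kars signal was found in 0 of 48 and 0 of 46 cells at 0 hours, in 2 of 47 cells of 24-hour run 1 (4.26%) and in 18 of 63 cells of run 2 (28.6%). The order of the 24-hour runs was therefore the same at equal depth, with a difference of 38.3 percentage points before thinning and 24.3 after it.

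The 36 cells with Kars signal in 24-hour run 2 came from all 8 rows and all 12 columns of the plate layout in the cell names. Their median depth was 2232 counts, against 1334.5 for the 36 cells of that run without Kars signal. A cell's value was 2, the highest in the matrix, in 71.7% of all cells with Kars signal, against 53.4% of all values above 0. The start site of Terf2ip, which encodes the telomere protein RAP1, lay 75 bp from that of Kars on the opposite strand in GENCODE and 5 bp from it in RefSeq, so the region lies at the start sites of both genes.

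Mars2, the mitochondrial methionyl enzyme, was another region with a high value in 24-hour run 2, and it was singled out after its values were seen. Its region, chr1:55237065-55237214, held 7 and 4 counts at 0 hours and 2 and 33 counts at 24 hours. Signal was found in 8.33% and 6.38% of 0-hour cells, in 3.33% of cells of 24-hour run 1 and in 23.6% of cells of run 2 (exact 95% interval 14.4 to 35.1%). The time-points overlapped, since 24-hour run 1 was the lowest of the 4 runs. The log2 change was 1.61 ± 0.77 (SE), with p = 0.041 and an adjusted p = 0.376 by edgeR (quasi-likelihood, Benjamini-Hochberg). It was 2.98 in thinned cells, -1.33 without 24-hour run 2, and 2.49 with an adjusted p = 0.0097 by the same test without 24-hour run 1. That last p takes the spread from the 0-hour runs alone, with the remaining 24-hour run assumed to vary like them, and that run is the one whose high value singled the region out. In 24-hour run 2, Mars2 signal was found in 9 of 36 cells with Kars signal and in 8 of 36 without it.

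**Figure D3:**
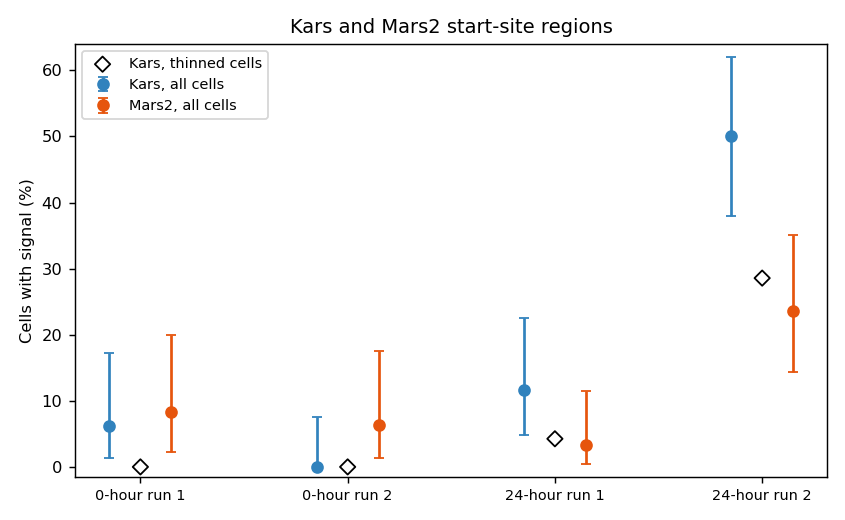
Cells with signal (%, vertical axis) in the Kars and Mars2 regions in each of the 4 runs (horizontal axis), with filled points for all cells, bars for exact 95% binomial intervals and open diamonds for Kars after thinning every cell to 837 counts. Kars reached 50% and Mars2 23.6% in 24-hour run 2, while the 3 other runs lay at 11.7% or below for Kars and 8.33% or below for Mars2.

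Across promoter regions, 213 of 8786 (2.42%) were at least 4-fold higher in 24-hour run 2 than in run 1 and 143 (1.63%) at least 4-fold lower. Of the 37 member regions, 1 was at least 4-fold higher in run 2, Mars2 with a log2 difference of 3.03, and 0 were lower by that much. Kars lay just under that limit with 1.96, as did Lars2, the mitochondrial leucyl enzyme, with 1.99. These differences are of log2 CPM with a prior count of 2, which draws low values together, and with 1 run on each side they had no replicate check. The Lars2 values were 54.6 and 94.0 CPM at 0 hours and 16.2 and 110 at 24 hours. Cars had 115 and 104 CPM at 0 hours and 56.6 and 183 at 24 hours. Pars2 had 48.5 and 73.1 at 0 hours and 72.8 and 161 at 24 hours. Other members were lower in run 2, such as Rars, with 88.9 CPM in 24-hour run 1 and 22.0 in run 2. Over the 37 member regions the median log2 difference of 24-hour run 2 over run 1 was -0.05.

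Kars aside, none of the member regions passed edgeR's test of the change from 0 to 24 hours. By this quasi-likelihood test, 0 of these 36 had an adjusted p under 0.05, where 11 of all 20103 regions did (0.0547%), and DESeq2 called 0 members and 0 regions in all. At an unadjusted p under 0.05 it was 1 of 36, Mars2, against 12.1% of all regions and 9.59% of promoter regions. The spread between runs is 1 limit of this test. In simulated data with the estimated coefficient of variation, the test called 0 of 200 regions changed by a log2 of 2. At a coefficient of variation of 0.1 it still called only 69 of 200, so that spread was not the only limit. The values below are therefore descriptions of the runs.

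Both runs at 24 hours exceeded both at 0 hours in 9 of the 36 regions other than Kars (25.0%), against 28.0% of promoter regions and 19.3% of all regions. Both lay below in 5 of 36 (13.9%), against 13.1% of promoter regions and 25.7% of all regions. These shares of the members are near those of promoters.

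The 4 largest differences among the 9 were those of Farsb, Rars2, Aars and Dars. Farsb encodes the beta subunit of the cytosolic phenylalanyl enzyme, and its values were 18.2 and 10.4 CPM at 0 hours and 64.7 and 44.0 at 24 hours (log2 change 1.79 ± 1.10, adjusted p = 0.55 by edgeR). They rest on 3 and 1 counts against 8 and 6, and the log2 change was 0.35 in thinned cells. Its partner Farsa, the alpha subunit, had 18.2 and 52.2 CPM at 0 hours and 32.3 and 88.0 at 24 hours, with overlap of the groups. Rars2, the mitochondrial arginyl enzyme, had 42.5 and 41.8 CPM at 0 hours and 105 and 66.0 at 24 hours (log2 change 1.00 ± 0.79, adjusted p = 0.67 by edgeR), and Orc3 starts in the same region.

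The region 661 bp downstream of Aars, the alanyl enzyme, had 30.3 and 52.2 CPM at 0 hours and 72.8 and 80.7 at 24 hours (log2 change 0.93 ± 0.83). The 3-bp region 766 bp downstream of Aars had 18.2 and 10.4 CPM at 0 hours and 16.2 and 7.33 at 24 hours (log2 change -0.34). The region 23 bp upstream of Dars, the aspartyl enzyme, had 24.3 and 10.4 at 0 hours and 40.4 and 29.3 at 24 hours (log2 change 0.88 ± 1.20). Those values rest on 4 and 1 counts against 5 and 4, and the sign of the log2 change turned after thinning, to -0.16. The other Dars region, 414 bp downstream, had 0 and 52.2 CPM at 0 hours and 8.09 and 7.33 at 24 hours (log2 change -1.45). Qars had 121 and 52.2 CPM at 0 hours and 170 and 132 at 24 hours, and Nars2 had 109 and 31.3 at 0 hours and 129 and 110 at 24 hours. In both genes 0-hour run 2 was the lowest of the 4 runs. Their log2 changes were 0.72 ± 0.58 and 0.67 ± 0.64, and 1.64 and 1.77 in thinned cells.

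The region shared by Hars and Hars2, the cytosolic and mitochondrial histidyl enzymes, whose start sites are 197 bp apart on opposite strands, was also among the 9. It had 66.7 and 94.0 CPM at 0 hours and 137 and 110 at 24 hours (log2 change 0.64 ± 0.62, adjusted p = 0.74 by edgeR). Its signal cannot be divided between the cytosolic and the mitochondrial enzyme.

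The 5 regions with both runs at 24 hours below both at 0 hours were those of Sars (386 bp downstream), Yars2 (41 bp upstream), Ears2, Yars and Iars. Iars, the most often detected member, had 176 and 188 CPM at 0 hours and 137 and 132 at 24 hours (log2 change -0.43 ± 0.52, adjusted p = 0.81 by edgeR), and signal in 33.3% and 21.3% of 0-hour cells and 18.3% and 12.5% of 24-hour cells. Yars, the cytosolic tyrosyl enzyme, had 109 and 104 CPM at 0 hours and 72.8 and 80.7 at 24 hours (log2 change -0.47 ± 0.65). Its mitochondrial counterpart Yars2 had 66.7 and 83.6 at 0 hours and 32.3 and 44.0 at 24 hours (log2 change -0.94 ± 0.84), and its sign turned in thinned cells, to 0.46. In these 3 genes the 24-hour runs lay close to each other. Ears2 differed between its nearest runs by under 1 CPM, with 97.0 and 104 at 0 hours and 97.0 and 44.0 at 24 hours. The Sars region 386 bp downstream rests on 9 cells in all. The Sars region nearest the start, 57 bp upstream, had 115 and 94.0 CPM at 0 hours and 162 and 88.0 at 24 hours. The other intronic one, 997 bp downstream, had 30.3 and 0 at 0 hours and 0 and 7.33 at 24 hours. The second Yars2 region, 481 bp upstream, had 24.3 and 31.3 at 0 hours and 0 and 36.7 at 24 hours. In each of these regions the time-points overlapped.

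**Figure D4:**
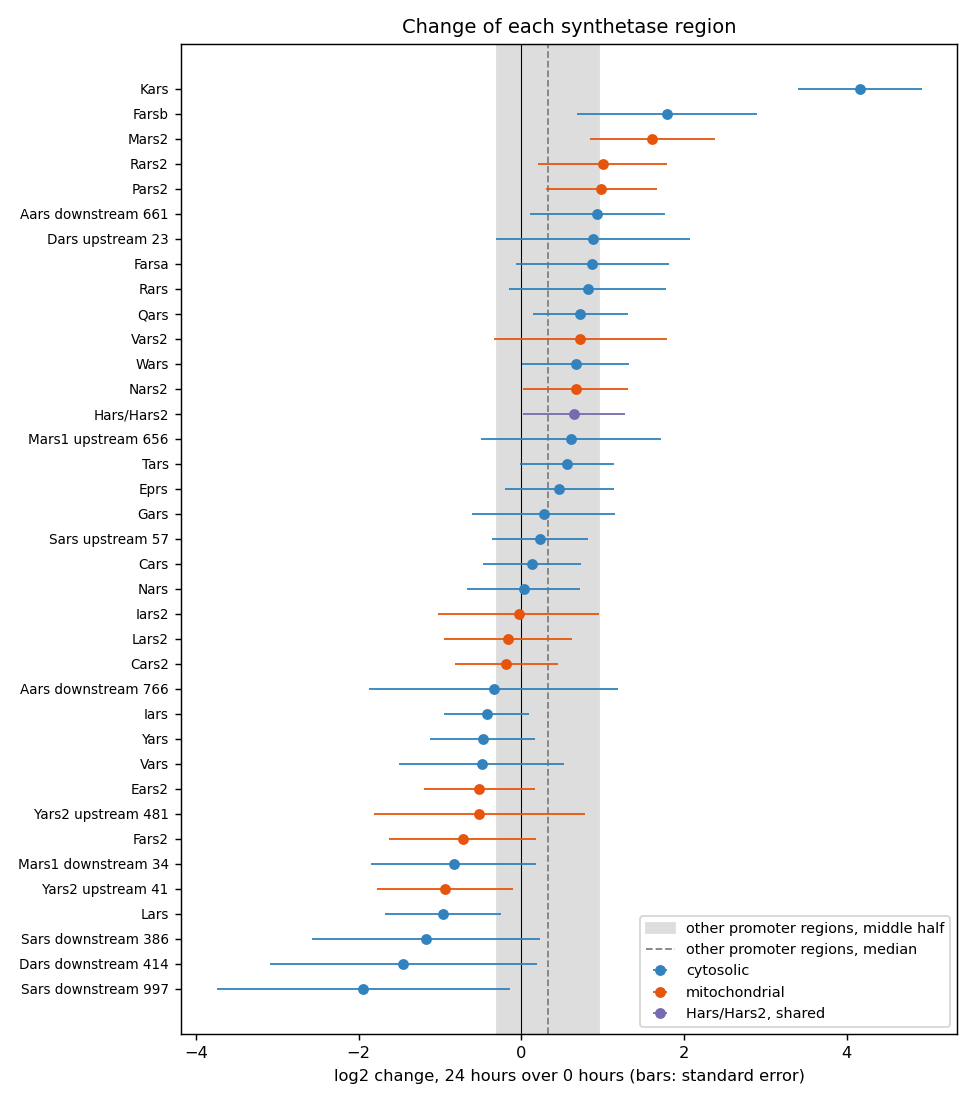
The log2 change from 0 to 24 hours (horizontal axis) of each of the 37 synthetase regions (rows), with bars for the standard error, over a grey band for the middle 50% of the 8749 other promoter regions and a dashed line at their median of 0.33. Members spread on both sides of that line from -1.94 (Sars, 997 bp downstream) to 4.16 (Kars). The Kars bar comes from the same fit as the others and is a description, since that region was not tested.

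The log2 changes of cytosolic regions had a median of 0.25 (0.23 without Kars), those of mitochondrial regions -0.10 and those of other promoter regions 0.33. A log2 change above 0 was found in 14 of 23 cytosolic regions without Kars (60.9%), 5 of 12 mitochondrial regions (41.7%) and 64.6% of other promoter regions. The mitochondrial median lay 0.43 below that of other promoter regions, but it lay 0.24 above it among regions detected in at least 10% of cells, 0.33 above it in thinned cells and 0.12 above it without 24-hour run 1. The sign of that difference thus turned under these 3 alternatives, and thinning both lowered depth and left out cells. The cytosolic median lay 0.08 below that of other promoter regions, and 0.59 below it without 24-hour run 1, but 0.14 above it without 24-hour run 2 and 0.12 above it in thinned cells.

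Summed over regions, cytosolic enzymes took 0.156% and 0.128% of a run's counts at 0 hours and 0.179% and 0.184% at 24 hours. The ratio of the means was 1.27, with both runs at 24 hours above both at 0 hours. With 2 runs against 2, a two-sided exact permutation test cannot go below 0.333, so no p is given. Without Kars the 24-hour shares were 0.168% and 0.141%, the groups overlapped, and the ratio was 1.09. Mitochondrial enzymes took 0.0688% and 0.0788% at 0 hours and 0.0653% and 0.1003% at 24 hours. Their ratio was 1.12, and 1.01 without Mars2. The groups overlapped with and without it.

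Other promoter regions moved the same way, with 50.8% and 48.3% of counts at 0 hours and 58.0% and 66.1% at 24 hours (ratio 1.25). Taken as a share of promoter counts, all member regions together held 0.454% and 0.447% at 0 hours and 0.442% and 0.445% at 24 hours (ratio 0.984). On that scale the ratio was 1.02 for cytosolic and 0.885 for mitochondrial enzymes. The ratios of 0.984 and 1.02 include Kars, whose counts chose the family. With Kars left out of members and promoters, the other 36 regions held 0.450% and 0.447% of promoter counts at 0 hours and 0.424% and 0.380% at 24 hours. Their ratio was 0.896, with both runs at 24 hours below both at 0 hours. Cytosolic enzymes without Kars held 0.302% and 0.265% at 0 hours and 0.288% and 0.213% at 24 hours. Their ratio was 0.884, and the groups overlapped.

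**Figure D5:**
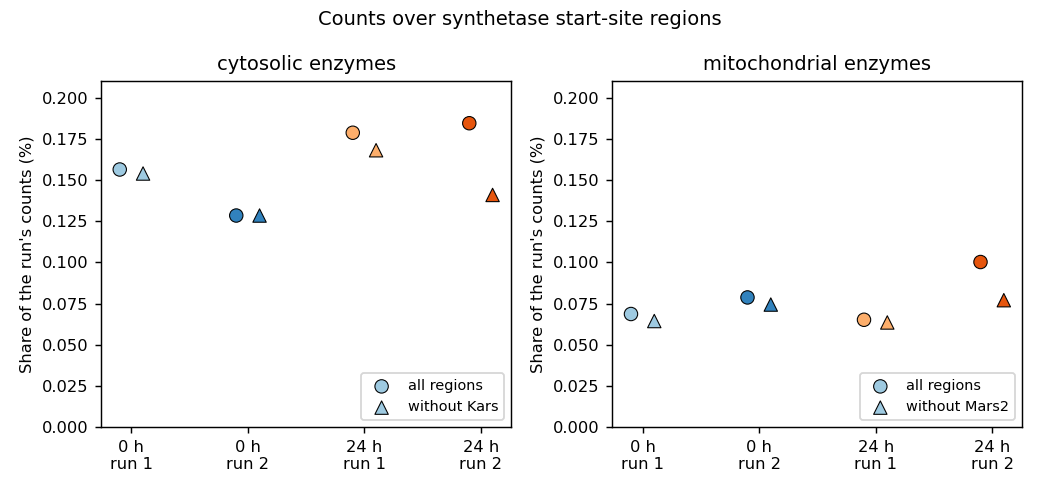
Share of a run's counts (%, vertical axis) over cytosolic (left) and mitochondrial (right) synthetase regions in each of the 4 runs (horizontal axis), with circles for all regions and triangles without Kars (left) or without Mars2 (right). Without Kars, cytosolic 24-hour run 2 dropped from 0.184% to 0.141%, between the 0-hour runs, and without Mars2 the mitochondrial shares all lay between 0.0636% and 0.0771%.

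The 9 cytosolic regions whose windows held TGATGNAA had 688 and 583 CPM in sum at 0 hours and 596 and 680 at 24 hours, so the time-points overlapped. Sums in this paragraph are scaled to run totals without TMM, unlike the CPM of single regions. The 14 cytosolic regions without it and other than Kars had 852 and 702 at 0 hours and 1085 and 729 at 24 hours, which also overlapped. The median log2 change was 0.03 with the motif and 0.54 without it, and 2 of 9 and 3 of 14 regions had both runs at 24 hours above both at 0 hours, against 28.0% of promoter regions. Both lay below in 1 of 9 and 2 of 14, against 13.1%. The difference between the groups was not tested.

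The partners of the synthetases, which hold the multi-synthetase complex together, form the complex that converts misacylated transfer RNA in mitochondria or complete special charging steps, were taken with Tarsl2, a synthetase-like gene outside the member list. A start-site region was found for 9 of these 10 genes. None of the 9 regions passed edgeR's test at an adjusted p under 0.05, and 1 had an unadjusted p under 0.05, against 9.59% of promoter regions. That region belonged to Gatc, which encodes a subunit of the mitochondrial glutaminyl-tRNA amidotransferase, with 12.1 and 10.4 CPM at 0 hours and 8.09 and 161 at 24 hours (log2 change 2.81 ± 1.09, adjusted p = 0.277 by edgeR). Its counts were 2 and 1 against 1 and 22, so it was high in 24-hour run 2 alone, as Mars2 was, and the time-points overlapped. Both runs at 24 hours exceeded both at 0 hours in 1 region, against 28.0% of promoter regions, and lay below them in 1, against 13.1%. The latter was Aimp2, a scaffold of the multi-synthetase complex, with 152 and 157 CPM at 0 hours and 56.6 and 88.0 at 24 hours (log2 change -1.07 ± 0.60, adjusted p = 0.49 by edgeR). Qrsl1, which encodes another subunit of the same amidotransferase, had 48.5 and 20.9 at 0 hours and 72.8 and 66.0 at 24 hours.

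Of 20 amino acid response genes, 16 had a region, 23 regions in all, and none passed the adjusted test by edgeR, with 1 at an unadjusted p under 0.05, that of Slc7a5, against 9.59% of promoter regions. Both runs at 24 hours exceeded both at 0 hours in 4 of the 23, against 28.0% of promoter regions, and lay below them in 4, against 13.1%. The median log2 change was 0.11, against 0.33 over other promoter regions. Slc7a5, the light chain of the large neutral amino acid transporter, had 18.2 and 20.9 CPM at 0 hours and 72.8 and 95.3 at 24 hours (log2 change 2.07 ± 0.93, adjusted p = 0.34 by edgeR). Of 2 regions at Trib3, which encodes a pseudokinase induced by ATF4, the one 443 bp downstream of the start had 18.2 and 20.9 CPM at 0 hours and 105 and 44.0 at 24 hours (log2 change 1.89 ± 0.98, adjusted p = 0.44 by edgeR). The other, 15 bp downstream, held 6 and 4 counts at 0 hours and 3 and 8 at 24 hours, and its time-points overlapped. Of 2 regions at Ddit3, which encodes the stress factor CHOP, the one 934 bp downstream of the start had 36.4 and 41.8 CPM at 0 hours and 32.3 and 0 at 24 hours (log2 change -1.26 ± 1.24, adjusted p = 0.75 by edgeR), which rest on 6 and 4 counts against 4 and 0. The other, just upstream of the start, held 24 and 9 counts at 0 hours and 17 and 17 at 24 hours, and its time-points overlapped. Eif2ak4, which encodes GCN2 and was singled out after its values were seen, had 121 and 52.2 CPM at 0 hours and 72.8 and 315 at 24 hours (log2 change 1.10 ± 0.59, adjusted p = 0.46 by edgeR). The time-points overlapped, and 24-hour run 2 lay above the other 3 runs.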

How the data were processed

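Per the methods, the authors aligned reads of each cell to mm10 (Bowtie2), dropped duplicates (Picard) and shallow libraries, and called peaks on bulk samples (HOMER). They deposited whole-number counts per peak and cell without normalization. No value exceeds 2, and the handling of higher values is not stated. Whether coordinates count from 0 or 1 is also not given, and they are printed as deposited. The matrix has fewer regions than the peak set that the methods describe, and its cells per time-point differ from theirs by 1, so genes named as having no region have none among the regions used here. Bulk samples were not analysed here, and no doublet caller was run, since capture sites were inspected by eye.

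Each C1 run was taken as 1 sample by adding up its cells, since cells are not replicates, and all 20103 regions were tested together with edgeR 4.0.16 (quasi-likelihood, TMM) in R 4.3.3, p-values adjusted by Benjamini-Hochberg and called under 0.05. Fold changes are log2 with edgeR's prior count. Each ± value of a log2 change is its SE, worked back from the F statistic of that test. It is not a plain spread between the runs. DESeq2 1.42.0, run totals, the number of cells as offset, a filter at 10% of cells, detected or not, thinned cells, a replicate block and each run left out were alternatives. Intervals are exact binomial (Clopper-Pearson) at 95% and, like the limit of 3 counts for a count of 0, cover counting error only. Genome copies were counted by BLAST 2.17.0 at 90% identity over 80% of a region. Mars1 was matched to the annotation's Mars through RefSeq synonyms.

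Regions were named by rule: Kars, the 3 most often detected per class, up to 5 in each direction with no overlap between time-points, and Hars/Hars2. Other members named were chosen after their values were seen. 1 gene of the partner list and 1 sequence are not reported here. The members and gene lists were chosen with earlier results of these data known. In simulated data of 20103 regions with 200 changed from 0 to 24 hours by a log2 of 2, the test called 69 at a coefficient of variation of 0.1 and 0 at 0.42, close to the 0.419 estimated here.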

Additional observations from a re-analysis of the deposited data

How the results depend on the processing

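The number of member regions other than Kars with an adjusted p under 0.05 was 0 under each alternative except without 24-hour run 1, where it was 1, Mars2 (range 0 to 1 over the 4 runs left out). The filter at 10% of cells left 16 of these 36 regions. Over all regions the number was 11, with a range of 0 (DESeq2, detected or not, thinned cells) to 33 (run totals) where all runs were kept, and of 1 to 797 with a run left out, 797 being the value without 24-hour run 1. The log2 change of Kars ran from 2.76 to 8.08. The cytosolic ratio of 1.27 was 1.02 as a share of promoter counts and 1.09 without Kars, an alternative added after seeing the data (also without Kars and Mars2, and both on the scale of promoter counts, where the ratio was 0.884 in each case), and ran from 1.16 to 1.41 with a run left out. The ratio of all members, 1.23, was 0.984 as a share of promoter counts, a value that rests on Kars, since it was 0.896 without Kars and 0.871 without Kars and Mars2. As a share of all counts it was 1.08 without Kars and Mars2, and ran from 1.15 to 1.32 with a run left out. The mitochondrial ratio ran from 0.806 to 1.36. The difference between the 24-hour runs in cells with Kars signal was 38.3 percentage points, and 24.3 in thinned cells. The cause of these shifts was not tested.

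Run numbers 1 and 2 are shared between time-points, but the labels do not say that they pair the runs, and the run 2 minus run 1 differences at 0 and 24 hours correlated at -0.02 across regions. With a replicate block, 11 regions were called in all and 0 members other than Kars. The number of cells limits every member: shares of cells at or below 4.17 to 6.38%, by run, rest on 3 cells of a run or fewer.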
